A study of Mus musculus with 8 samples.

Results

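Ligand-gated ion channels are membrane proteins that open a pore when a transmitter binds. The genes described here are the autosomal protein-coding mouse genes for subunits of the ionotropic glutamate receptors (Gria, Grik and Grin symbols), the GABA-A and GABA-rho receptors (Gabr), the glycine receptors (Glra and Glrb) and the nicotinic acetylcholine receptors (Chrn). They are defined by their symbols and number 50 of the 20665 autosomal protein-coding genes in the RefSeq annotation of GRCm38. Subunits encoded on the X chromosome lie outside this choice. A region was assigned to a gene where it overlapped the gene's span extended by 2 kb on both sides.

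H3K27me3, trimethylation of lysine 27 on histone H3, was mapped by sequencing of immunoprecipitated chromatin (ChIP-seq) from 3T3 cells, an immortal line of mouse embryonic fibroblasts. The cells carried a control construct or a construct overexpressing NNMT (nicotinamide N-methyltransferase, which consumes the methyl donor S-adenosylmethionine). Each construct has 3 immunoprecipitated libraries, labelled as biological replicates, and 1 input library. All cultures shared the same conditions: methionine-free DMEM brought to 10 µM methionine with 10% dialyzed serum for 48 h, then fixation with 1% formaldehyde, digestion with micrococcal nuclease and precipitation with antibody clone C36B11. The labels do not give the promoter of the construct, the number of clones or whether the replicates were separate infections. The authors' deposited table lists regions with 3 values for one set of libraries and 3 for another, and nothing in it says which set is NNMT. Set 1 below means the libraries in the first positions of each row and set 2 those in the last, so no direction below is tied to NNMT. The sources used here do not give the unit of the values, and the regions had already been selected by the authors for a difference between the sets. A gene without a listed region may therefore carry the mark equally in both sets, or not at all.

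H3K27me3 is laid down by Polycomb repressive complex 2 and marks silent genes, many of them genes of other lineages than the cell's own. Ionotropic glutamate receptors are tetramers that carry fast excitation, in the AMPA, kainate and NMDA families. GABA, glycine and nicotinic receptors are pentamers: the GABA and glycine receptors pass chloride and are mostly inhibitory, and the nicotinic receptors pass cations. Most of these subunits belong to neurons, while one nicotinic group serves the neuromuscular junction. RNA was not measured here, so the marker genes serve only as a check on the list: 0 of 10 fibroblast genes (among them Col1a1, Vim and Thy1) carried a listed region, against 2 of 6 neuronal and 4 of 5 muscle genes and 32.7% of all autosomal protein-coding genes.

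Promoter windows, from RefSeq on GRCm38.p6, run from 250 bases before an annotated start to 50 bases after it. They were at hand for 36 of the 50 genes, in 40 windows. Of these 36 genes, 5 (13.9%) had a listed region over a window, against 10.1% of all autosomal protein-coding genes in the same promoter table. The 4 such windows with the largest summed values are printed first, because a measured difference reaches into them. The regions share 121 bases with the Chrna5 window, 300 with that of Gabrr3, 60 with that of Chrng and 27 with that of Chrna4; those of Chrna5 and Chrna4 end upstream of the annotated start. The Grik3 window is added as a contrast, chosen after its values were seen. All are written 5′ to 3′ on the gene's own strand, with CG dinucleotides in capitals.
Chrna5 promoter, chr9:54980630-54980929, plus strand: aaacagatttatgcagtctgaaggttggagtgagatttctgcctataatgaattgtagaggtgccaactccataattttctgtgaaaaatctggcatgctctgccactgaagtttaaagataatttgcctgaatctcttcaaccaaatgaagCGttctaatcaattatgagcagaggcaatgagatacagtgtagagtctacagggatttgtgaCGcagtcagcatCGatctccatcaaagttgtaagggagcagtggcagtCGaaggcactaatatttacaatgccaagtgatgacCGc
Gabrr3 promoter, chr16:59407132-59407431, plus strand: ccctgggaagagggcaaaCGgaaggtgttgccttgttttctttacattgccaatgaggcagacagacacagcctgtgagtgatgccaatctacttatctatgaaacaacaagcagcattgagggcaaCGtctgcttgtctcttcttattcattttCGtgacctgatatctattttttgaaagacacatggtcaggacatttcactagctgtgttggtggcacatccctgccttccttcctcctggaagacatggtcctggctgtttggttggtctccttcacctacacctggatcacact
Chrng promoter, chr1:87205561-87205860, plus strand: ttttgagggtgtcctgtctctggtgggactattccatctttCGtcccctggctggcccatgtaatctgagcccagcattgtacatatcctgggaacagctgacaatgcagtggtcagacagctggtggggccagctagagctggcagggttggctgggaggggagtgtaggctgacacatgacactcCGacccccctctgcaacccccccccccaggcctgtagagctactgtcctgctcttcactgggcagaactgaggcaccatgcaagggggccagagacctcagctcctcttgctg
Chrna4 promoter, chr2:181039128-181039427, minus strand: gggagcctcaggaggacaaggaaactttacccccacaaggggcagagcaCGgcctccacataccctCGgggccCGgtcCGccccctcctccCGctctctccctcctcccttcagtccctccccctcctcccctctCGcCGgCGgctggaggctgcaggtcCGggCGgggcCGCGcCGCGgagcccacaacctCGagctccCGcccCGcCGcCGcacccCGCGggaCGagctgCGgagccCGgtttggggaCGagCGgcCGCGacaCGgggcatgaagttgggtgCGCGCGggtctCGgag
Grik3 promoter, chr4:125490446-125490745, plus strand: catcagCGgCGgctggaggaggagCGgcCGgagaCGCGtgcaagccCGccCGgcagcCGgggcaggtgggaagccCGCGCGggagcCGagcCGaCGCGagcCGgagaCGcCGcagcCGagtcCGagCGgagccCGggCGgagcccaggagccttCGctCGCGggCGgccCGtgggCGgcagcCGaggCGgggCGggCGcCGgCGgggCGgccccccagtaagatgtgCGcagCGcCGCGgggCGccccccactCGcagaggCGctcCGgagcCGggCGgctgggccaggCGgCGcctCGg

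These windows hold 5 CG dinucleotides (Chrna5), 3 (Gabrr3), 2 (Chrng), 33 (Chrna4) and 50 (Grik3). The fifth gene with a region over its window, Chrne, holds 1. The median count was 3.0 in the 5 overlapped windows of these genes and 12 in their other 35. Over all 20085 windows of the table it was 5.0 in the 1867 overlapped and 15.0 in the 18218 others. The medians thus differed in the same direction, but 5 overlapped windows are too few to speak for the channel genes. Among these windows, that of Chrna4 with 33 went the other way. The Chrne window counts only through a region of 50 bp whose values overlapped between the sets. The overlapped Chrna5 window is the upstream one of a pair in the table. The other, at chr9:54981238-54981537 with 25 CG dinucleotides, lay 488 bp from the nearest listed region.

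The region over the Chrna5 window (chr9:54979351-54980750) had values of 320, 365 and 361 in set 1 against 230, 260 and 308 in set 2. That over the Chrng window (chr1:87205801-87207150) had 200, 210 and 243 against 145, 163 and 127. Set 1 was higher in both without overlap, by 1.31-fold (1.04 to 1.59 over pairs of libraries) and 1.50-fold (1.23 to 1.91). The Gabrr3 window lay wholly inside a region (chr16:59406751-59408100) with 195, 123 and 93 in set 1 against 220, 223 and 273 in set 2, a 1.74-fold difference (1.13 to 2.94) towards set 2. At its upstream edge the Chrna4 window met a region (chr2:181039401-181039950) that also favoured set 2, with 127, 102 and 99 against 146, 148 and 144. This window lies inside the span of the gene, whose 5′ end is at 181043579. The region over that end (chr2:181040801-181047550) went the other way as deposited. It had 1870, 1889 and 1785 in set 1 against 1635, 1623 and 1500 in set 2. Chrna4 as a whole leaned to set 1 as deposited and had hardly any difference after the rescaling described below. The Grik3 window was not overlapped, and the nearest listed region began 1896 bp away, in a gene whose window was otherwise covered by listed regions over 76.6% of its length. Of the 26 promoter windows belonging to genes with a region, 16 were likewise free of a region but within 2 kb of one, and 5 were more than 2 kb away.

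A listed region was carried by 33 of the 50 channel genes (66.0%), against 32.7% of all autosomal protein-coding genes. The channel genes are longer than most, with a median span of 53.2 kb against 17.5 kb, and a longer gene can meet more regions. Among the 18 of at least 100 kb, 8 carried a region, where 48.0% of all such genes did. Among the 32 shorter ones, 25 did, where the share over all genes was 30.8%. Of the 17 genes without a region, 10 (58.8%) had none within 200 kb either, against 16.1% of all genes without one.

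By summed values, 18 of the 33 genes (54.5%) were higher in every library of set 1 than in any of set 2, where 58.7% of all genes with a region were. Another 14 (42.4%) were higher in every library of set 2, where 22.5% of all genes with a region were, and Chrna1 overlapped. The median log2 ratio of set 1 over set 2 was 0.12 for these genes and 0.36 for all genes with a region. Counted as regions, each once, the channel genes hold 1166 of the 263973 autosomal regions in the authors' deposited table, of which 6 are shared by 2 neighbouring genes. Set 1 was higher without overlap in 350 (30.0%, against 40.2% of all autosomal regions), set 2 in 467 (40.1%, against 24.8%), and 349 overlapped. The regions are not independent of each other, since neighbours in a gene share their surroundings.

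Summed over all autosomal regions the libraries of set 1 ranged from 39789561 to 41855644 and those of set 2 from 35510902 to 36910207. Sequencing depth is unknown. Rescaling the libraries to equal sums moved the median log2 ratio of all genes with a region by -0.19, and set 1 was then higher without overlap in 14 channel genes, where 46.8% of all genes with a region were, and in 234 of their regions, against 29.1% of all autosomal regions. Set 2 was then higher without overlap in 15 channel genes, where 31.9% of all genes with a region were, and in 565 of their regions, against 33.3% of all autosomal regions. Chrna1, Chrna4, Chrnb4, Grik4 and Grin2c changed the sign of their ratio under that rescaling; the other 28 kept theirs.

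**Figure D1:**
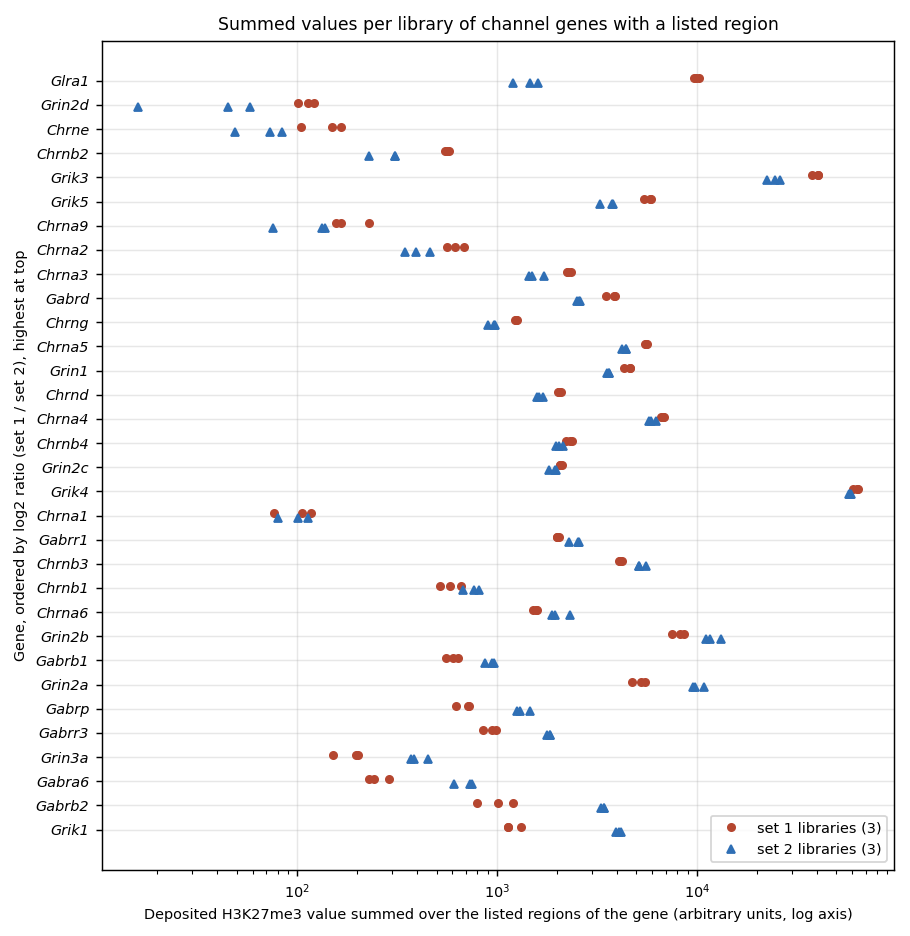
Deposited H3K27me3 values summed over the listed regions of 32 of the 33 channel genes with a region, on a log axis in arbitrary units; each point is 1 library, with circles for set 1 and triangles for set 2, and genes are ordered by log2 ratio. Glra1 at the top has all set 1 libraries between 9662 and 10276 and all set 2 libraries between 1205 and 1604, Grik1 and Gabrb2 at the bottom show the opposite order, and the points of Chrna1 overlap.

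Among the glycine receptor genes, Glra1 showed the widest separation of all 33. It encodes the α1 subunit of the adult spinal cord and brainstem receptor, which is mutated in hereditary startle disease, and spans chr11:55514239-55608198. Its summed values were 9948, 10276 and 9662 in set 1 against 1604, 1205 and 1467 in set 2. Set 1 was 6.99-fold higher, with a range of 6.02 to 8.53 when each set 1 library was divided by each set 2 library (9 pairs; the ranges below are of the same kind). Only 27 of the 6763 genes with a region had a higher log2 ratio. All 92 of its regions were higher in set 1, 91 of them without overlap. The level per kb of listed region was 233.8 in set 1 and 33.5 in set 2. The set 1 level lies among those of the other genes higher in set 1 (165.1 to 266.9), whereas the set 2 level is the lowest of any channel gene.

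The Glra1 difference extended along the gene and was uneven. In 4 equal parts from the lower-coordinate end the fold was 10.7, 8.16, 20.6 and 4.71. The region with the largest summed value (chr11:55601051-55605550) lay in the last part, with 1056, 1348 and 1350 in set 1 against 331, 352 and 309 in set 2. In the third part, the short region with the largest ratio (chr11:55569901-55570200) had 109, 46 and 71 against 1, 0 and 0. Listed regions within 200 kb outside the gene were also higher in set 1 in 202 of 210 cases, at a log2 ratio of 1.19 against 2.81 in the gene. Glra1 was the only 1 of the 33 genes to differ from its surroundings by more than 1 on the log2 scale, a gap shown by 8.88% of all genes with a region. The other glycine receptor genes, Glra3 and Glrb (the β subunit that anchors the receptor to gephyrin), carried no listed region.

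**Figure D2:**
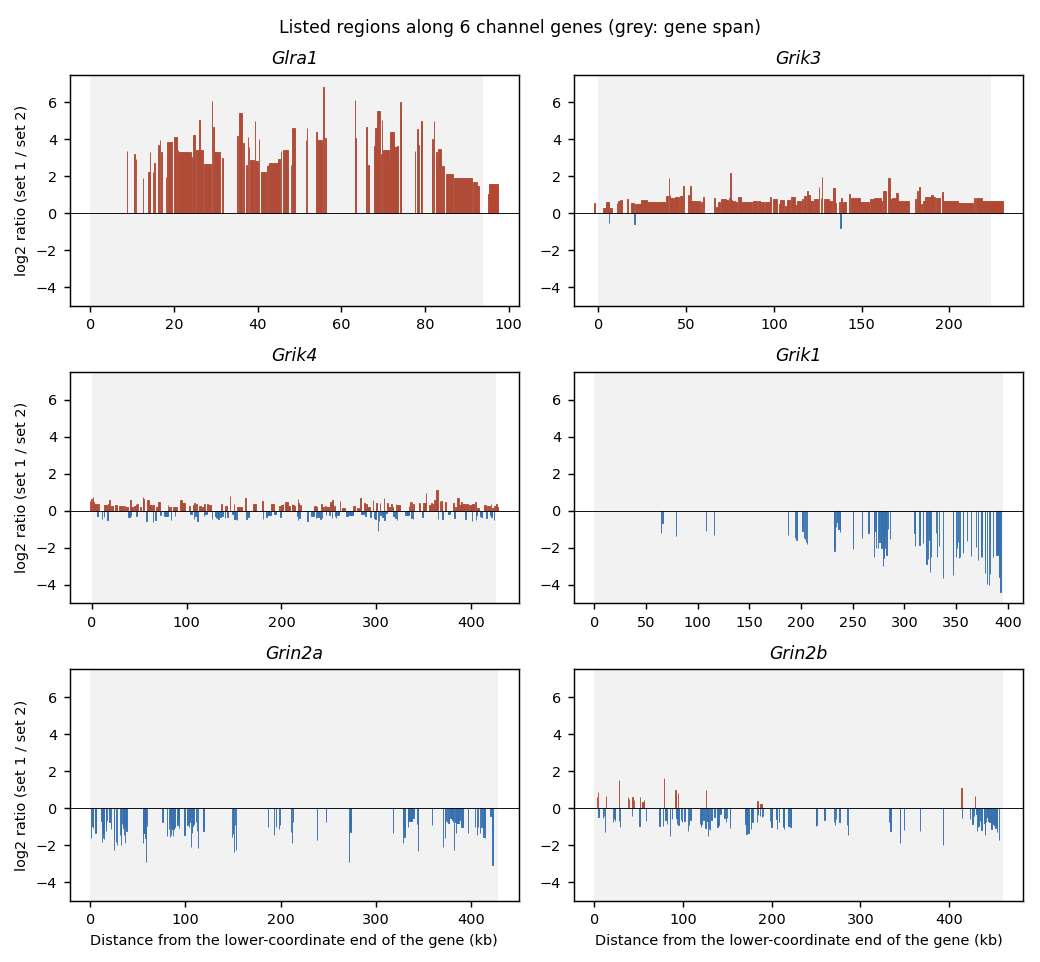
Log2 ratio of set 1 over set 2 for each listed region along 6 channel genes, plotted against distance in kb from the lower-coordinate end of the gene; bars above 0 are higher in set 1, bars below 0 higher in set 2, bar width is region length and grey marks the gene span. Glra1 has 92 of 92 bars above 0, Grik1 and Grin2a have all bars below 0 (91 and 135), and Grik4 alternates in sign with small ratios.

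The kainate receptor genes held 458 of the regions and differed among themselves. Grik1 to Grik3 encode subunits that can form channels alone, and Grik4 and Grik5 high-affinity subunits that need one of them as partner. Grik3 (chr4:125490259-125714173) had 40275, 40297 and 37823 in set 1 against 22551, 26027 and 24703 in set 2. Set 1 was 1.62-fold higher (1.45 to 1.79), in 101 of 104 regions. Its longest region, of 11450 bp, lies at the higher-coordinate end (chr4:125709101-125720550) and held 2933, 2701 and 2684 against 1451, 1958 and 1798. The fold ran from 1.52 to 1.73 over 4 equal parts of the gene, so the difference was nearly even along it. Grik5 (chr7:25009849-25075694) resembled it in size, with 5922, 5872 and 5476 against 3299, 3778 and 3831, a 1.58-fold difference (1.43 to 1.80), and 43 of 45 regions higher in set 1.

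Grik1 (chr16:87895901-88290863) went the other way in every region. Its sums were 1327, 1135 and 1137 in set 1 against 4091, 4199 and 3946 in set 2. Each of the 91 regions favoured set 2, by 3.40-fold in total (2.97 to 3.70). It had the lowest log2 ratio of the 33 genes, and 62 of all genes with a region lay lower. The fold became larger from the lower-coordinate end over 4 equal parts, at 2.01, 2.59, 2.88 and 4.69, and 46 of the regions lay in the last part. The region with the largest summed value (chr16:88284301-88287050) had 164, 101 and 94 against 594, 692 and 586. Its regions cover 5.48% of the gene's window, in pieces of 150 bp at the median.

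Grik4 (chr9:42518182-42945000) carried more listed regions than any other channel gene, 218, which cover 63.2% of its window. Its sums were 63287, 64465 and 60456 in set 1 against 57670, 59231 and 58246 in set 2. The 1.07-fold difference (1.02 to 1.12) separated the sets as deposited but turned to set 2 with libraries rescaled to equal sums. Regions of both directions alternated along the gene, 126 higher in set 1 and 92 in set 2. The clearest of each kind were chr9:42880901-42883350, with 508, 560 and 540 against 213, 306 and 233, and chr9:42819851-42820400, with 41, 42 and 79 against 134, 120 and 95. Grik2, the longest of the family, had no region and none within 200 kb.

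NMDA receptors combine the obligatory glycine-binding subunit Grin1 with glutamate-binding Grin2 subunits, and Grin3 subunits replace some of these. Grin1 (chr2:25291177-25319187) had 4639, 4666 and 4340 in set 1 against 3637, 3545 and 3642 in set 2. That is 1.26-fold higher in set 1 (1.19 to 1.32), with 11 of 13 regions in that direction. The long Grin2a gene (chr16:9567901-9996083), whose subunit prevails in the adult forebrain, had 5288, 5515 and 4734 against 9585, 10887 and 9772. All 135 of its regions were higher in set 2, by 1.95-fold in total (1.74 to 2.30). Its largest region (chr16:9901751-9905550) held 647, 690 and 505 against 938, 1091 and 927.

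Grin2b (chr6:135713221-136173615), the subunit of the embryonic brain, had 8661, 8286 and 7550 in set 1 against 11101, 13256 and 11677 in set 2. Set 2 was 1.47-fold higher (1.28 to 1.76), in 125 of 145 regions. Of the 20 regions that favoured set 1, 15 lay in the first of 4 equal parts from the lower-coordinate end, where the fold was 1.18, against 1.53 to 1.73 in the others. Its largest region (chr6:135900251-135901900) overlapped between the sets, with 414, 439 and 312 against 244, 431 and 307. Grin2d, a subunit of interneurons and the brainstem, carried a single region in its flank (chr7:45871301-45871950). The values there were 121, 113 and 101 against 16, 58 and 45, a 2.82-fold difference (1.74 to 7.56) that rests on small values. Grin3a, a subunit that lowers calcium entry, was 2.20-fold higher in set 2 (1.86 to 2.97) over 6 regions. Grin2c, the cerebellar subunit, was 1.09-fold higher in set 1 (1.04 to 1.17) and turned to set 2 after rescaling, and Grin3b had no region. Both long Grin2 genes with many regions were therefore higher in set 2, and Grin1 higher in set 1.

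The AMPA receptor genes Gria1, Gria2 and Gria4, which carry most fast excitation in the brain, had 0 listed regions in 3 genes. Regions did lie within 200 kb of Gria1 (16, of which 9 were higher in set 1) and Gria2 (7 of 7 higher in set 1), and none lay near Gria4.

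**Figure D3:**
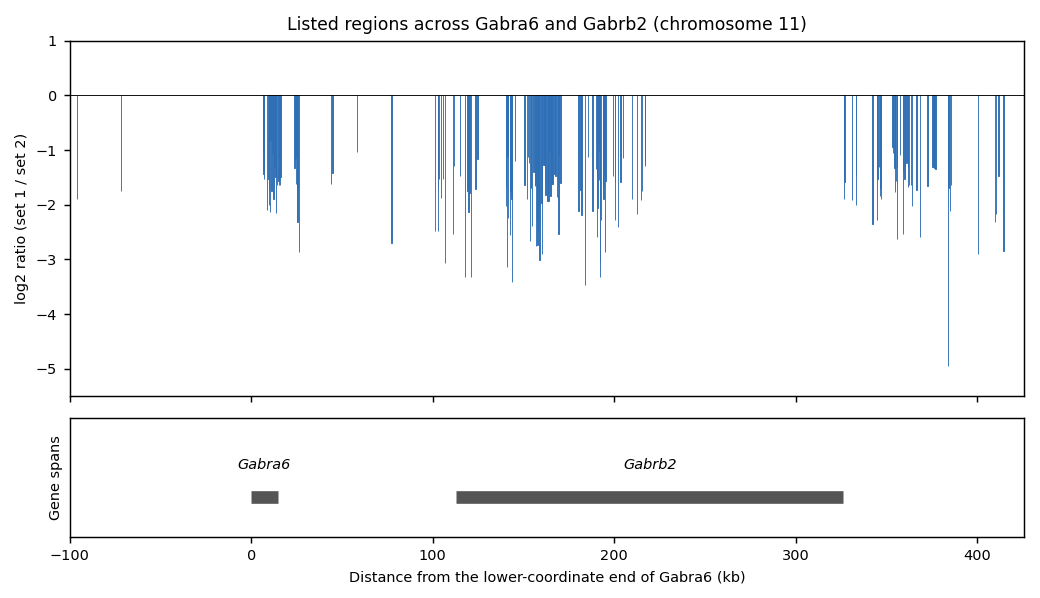
Log2 ratio of set 1 over set 2 for each listed region across Gabra6 and Gabrb2 and 100 kb on both sides, against distance in kb from the lower-coordinate end of Gabra6, with the gene spans drawn beneath. All bars lie below 0, higher in set 2, and they are densest over the lower-coordinate part of Gabrb2.

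The GABA-A receptor genes with the widest differences were neighbours on chromosome 11: Gabra6, the α subunit of cerebellar granule cells, and Gabrb2, a common β subunit. Gabrb2 (chr11:42419515-42632591) had 1211, 1015 and 798 in set 1 against 3428, 3457 and 3339 in set 2, a 3.38-fold difference (2.76 to 4.33), and each of its 92 regions was higher in set 2. Of 4 equal parts from the lower-coordinate end, the first held 50 of these regions and the second 40. Its largest region (chr11:42467251-42468300) held 116, 74 and 92 against 229, 243 and 211. Gabra6 (chr11:42306437-42321072) had 229, 244 and 290 against 609, 749 and 732, which is 2.74-fold (2.10 to 3.27), and again each of its 21 regions was higher in set 2. Set 2 exceeded set 1 in every library for both genes. The surroundings within 200 kb had a like ratio, at log2 -1.62 for Gabrb2 and -1.73 for Gabra6, and no region there was higher in set 1. Regions of Gabra6 count among the surroundings of Gabrb2 and the reverse, so this likeness is in part that of the genes to each other.

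Listed regions were few in the clusters of chromosomes 5 and 7. On chromosome 5 (Gabrg1, Gabra2, Gabra4 and Gabrb1) the 12 regions all belonged to Gabrb1, which had 556, 605 and 641 in set 1 against 963, 946 and 875 in set 2, a 1.54-fold difference (1.37 to 1.73). On chromosome 7, Gabrg3 and Gabra5 had none, and none lay within 200 kb of either. Elsewhere, Gabrp, an epithelial subunit, was 1.96-fold higher in set 2 (1.74 to 2.36) in 12 of 12 regions. Gabrd, the δ subunit of receptors outside synapses, was the only GABA-A gene higher in set 1, by 1.46-fold (1.35 to 1.54) in 8 of 8 regions. Its window partly overlaps Cfap74, so its regions cannot all be tied to 1 gene. In all, 5 of the 6 GABA-A genes with a region were higher in set 2 and 1 in set 1.

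GABA-rho subunits form the slow GABA receptors of the retina. Gabrr1 (chr4:33132556-33163588) had 2009, 2043 and 2008 in set 1 against 2581, 2546 and 2304 in set 2, 1.23-fold higher in set 2 (1.13 to 1.29), in 14 of 19 regions. Gabrr3, on chromosome 16, was 1.96-fold higher in set 2 (1.79 to 2.17) in 24 of 24 regions, in the direction of its printed promoter. Gabrr2, next to Gabrr1, had no region.

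All 5 muscle nicotinic genes carried listed regions. The receptor of the neuromuscular junction joins Chrna1, Chrnb1 and Chrnd with Chrng before birth and Chrne in the adult. Chrnd (chr1:87190597-87200070) had 2102, 2051 and 2026 in set 1 against 1701, 1594 and 1625 in set 2, 1.26-fold higher in set 1 (1.19 to 1.32), in 6 of 7 regions. Its neighbour Chrng was 1.31-fold higher in set 1 (1.26 to 1.40) in 4 of 4 regions. The largest region of Chrnd (chr1:87200451-87204350) also reaches the flank of Chrng, with 889, 873 and 850 against 743, 676 and 702. Counting only regions lying mostly inside the window, the log2 ratio of Chrng was 0.635. Chrnd and Chrng had smaller ratios than their surroundings within 200 kb, which include regions of the other gene. The log2 ratios of the surroundings were 0.85 and 0.80, against 0.33 and 0.39 in the genes. Chrne had 167, 149 and 105 against 73, 84 and 49, a 2.04-fold difference (1.25 to 3.41). These are small values, from 4 regions that all lie in the flank beside chr11:70614883-70619213. Chrnb1 was 1.28-fold higher in set 2 (1.03 to 1.58), while regions within 200 kb of it leaned to set 1 (45 of 59). Some of its regions also lie on another protein-coding gene. Chrna1, with 106, 118 and 77 against 80, 101 and 114, overlapped between the sets.

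Of 11 neuronal nicotinic genes, 9 carried regions, 7 higher in set 1 and 2 in set 2. Chrna4 and Chrnb2 form the main high-affinity nicotine receptor of the brain. Chrna4 (chr2:181022311-181043579) was the most fully covered channel gene, with listed regions over 91.3% of its window. It had 6858, 6749 and 6613 in set 1 against 5929, 6232 and 5785 in set 2, a 1.13-fold difference (1.06 to 1.19) that vanished into log2 -0.02 after rescaling. Chrnb2 (chr3:89753448-89764632) had 551, 576 and 561 against 309, 309 and 229. Set 1 was 1.99-fold higher there (1.78 to 2.52), in 4 of 4 regions.

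Chrna5, Chrna3 and Chrnb4 encode receptors of autonomic ganglia and the habenula and sit within 68.1 kb on chromosome 9. Together they had 8747, 8869 and 8488 in set 1 against 6899, 7069 and 6987 in set 2, 1.25-fold higher in set 1 (1.20 to 1.29), in 28 of 36 regions. Chrna5 (chr9:54980827-55011420) alone had 5560, 5644 and 5533 against 4411, 4452 and 4247, a 1.28-fold difference (1.24 to 1.33). Chrna3 was 1.47-fold (1.30 to 1.61) and Chrnb4 1.12-fold (1.03 to 1.20) higher in set 1, the latter turning to set 2 after rescaling. The spans of Chrna5 and Chrna3 overlap, so a region there belongs to both. Chrnb3 and Chrna6, partners in receptors of dopamine neurons, sit within 45.2 kb on chromosome 8 and leaned the other way. Chrnb3 (chr8:27368711-27399730) had 4100, 4222 and 4124 against 5142, 5558 and 5138, 1.27-fold higher in set 2 (1.22 to 1.36), and Chrna6 was 1.32-fold higher in set 2 (1.20 to 1.52). The remaining genes were Chrna2 (1.56-fold higher in set 1, 1.22 to 1.99) and Chrna9, a subunit of cochlear hair cells (1.58-fold higher in set 1, 1.14 to 3.00, from 2 regions in the flank). Chrna7 and Chrna10 had no region.

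Levels can be compared between genes per kb of listed region. Genes higher in set 2 had 166.2 to 225.1 per kb of listed region in set 2 and 54.9 to 176.9 in set 1. Genes higher in set 1 had 165.1 to 266.9 in set 1 and 33.5 to 236.9 in set 2. These ranges follow in part from grouping the genes by the higher set and from the selection of the regions for a difference, so they are given as a description. The regions higher in set 1 were also longer, with a median of 700 bp against 350 bp for those higher in set 2, whereas over all autosomal regions both medians were 450 bp. Few genes weigh heavily here. Grik4 and Grik3 supplied 126 and 101 of the 482 regions higher in set 1, and their regions had medians of 1025 and 1075 bp. Glra1 supplied 92, and its regions had a median of 200 bp. The sources used here do not give how the regions were called, and the part of the calling in these lengths was not tested.

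**Figure D4:**
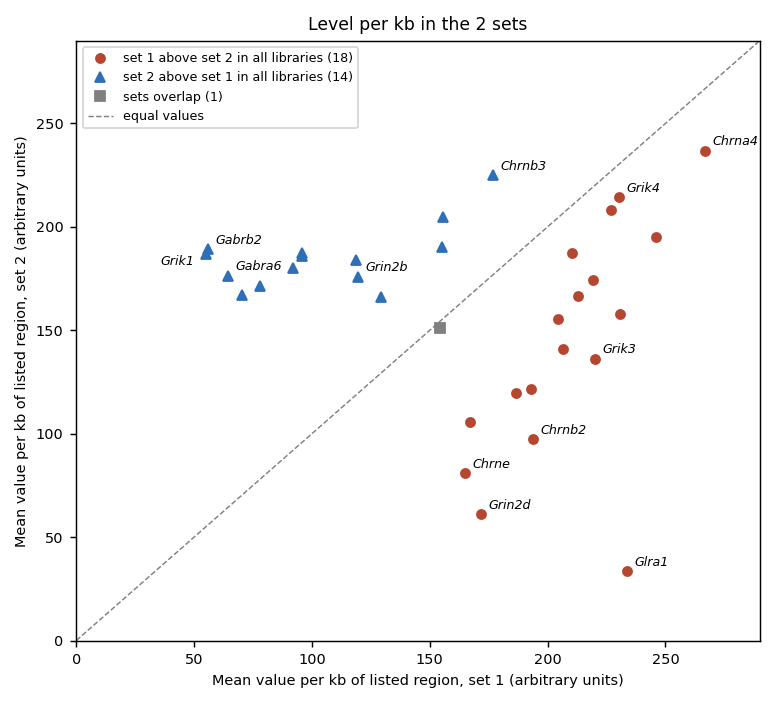
Mean value per kb of listed region in set 1 (horizontal) and set 2 (vertical), in arbitrary units, for the 33 channel genes with a region; circles are the 18 genes higher in every library of set 1, triangles the 14 higher in every library of set 2, the square is Chrna1 and the dashed line marks equal values. The triangles keep between 166.2 and 225.1 on the vertical axis while spreading from 54.9 to 176.9 on the horizontal axis.

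The ratio of a channel gene went with that of its surroundings. The log2 ratio had the same sign in the gene and in the listed regions within 200 kb outside it for 31 of the 33 genes (93.9%), and for 83.4% of the 6699 genes with a region and such surroundings. The surroundings of clustered channel genes include regions of their neighbours in the cluster, so these are not 33 separate observations. The exceptions were Chrnb1 and Chrna4. After rescaling, Chrna4 turned to set 2, as did Chrna1, Chrnb4, Grik4 and Grin2c. The surroundings of Chrna1, Chrnb4, Grik4 and Grin2c had deposited log2 ratios of 0.41, 0.29, 0.51 and 0.62. Surroundings were not recomputed after rescaling, so the 31 of 33 holds for the deposited values alone. Chromosomes differed too: on chromosome 16, where 33.6% of all listed regions were higher in set 1, all 250 regions of Grik1, Grin2a and Gabrr3 were higher in set 2. On chromosome 4, where 86.0% were higher in set 1, the channel genes had 114 regions higher in set 1, most of them in Grik3, and 23 higher in set 2. Below the 5th percentile of all genes with a region (log2 -1.07) lay 5 channel genes (15.2% of 33), of which some, such as Gabra6 and Gabrb2, are neighbours, so these are not 5 separate observations. Above the 95th percentile (log2 1.50) lay 1, Glra1.

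**Figure D5:**
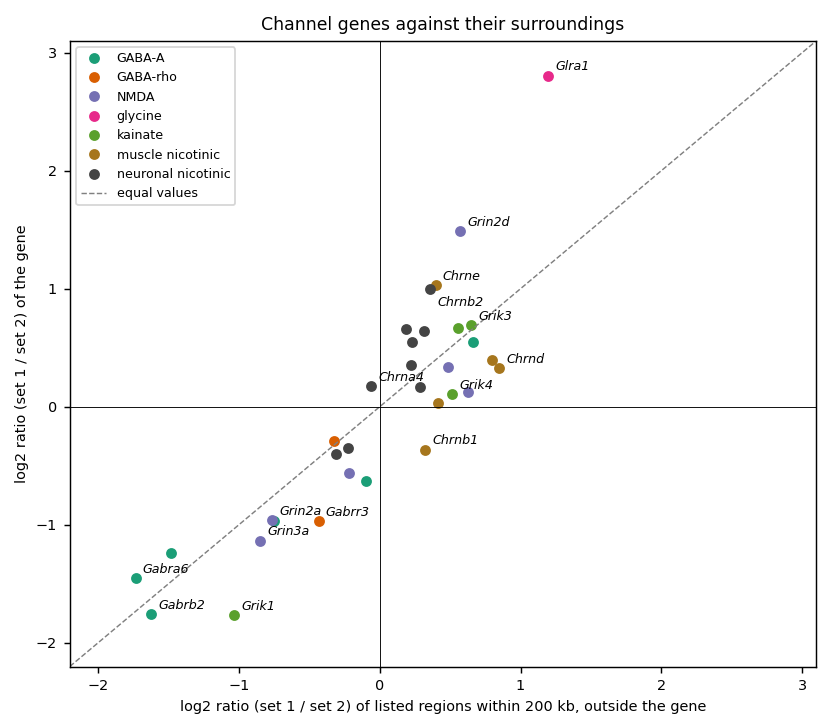
Log2 ratio of set 1 over set 2 of each of the 33 channel genes with a region (vertical) against that of the listed regions within 200 kb outside the gene (horizontal), coloured by receptor family; the dashed line marks equal values. Glra1 lies far above the line at 2.81 against 1.19, and Chrnb1 and Chrna4 are the points whose signs differ.

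Other genes of the same pathways were counted in the same way, beside the shares over all genes: 32.7% carried a region, and of those 58.7% were higher in set 1 and 22.5% in set 2 without overlap. Of 16 other ligand-gated channels, 11 carried a region, with 5 higher in set 1, 5 in set 2 and 1 overlapping. Among them the glutamate receptor relative Grid1 was 1.57-fold (1.46 to 1.72) and the acid-sensing channel relative Asic5 1.33-fold (1.23 to 1.46) higher in set 2. Asic4 was 1.64-fold higher in set 1 (1.54 to 1.72), as was the serotonin receptor subunit Htr3b by 1.06-fold (1.03 to 1.12), which turned to set 2 after rescaling. Of 37 auxiliary subunits, scaffolds and partners, 22 carried a region, 6 higher in set 1, 7 in set 2 and 9 overlapping. The AMPA receptor auxiliary gene Shisa9 had 8 of 170 regions higher in set 1 and was 1.54-fold higher in set 2 (1.38 to 1.73), and the scaffold Dlg2 was 1.41-fold higher in set 2 (1.38 to 1.45). Homer2, a postsynaptic scaffold, was 1.44-fold higher in set 1 (1.38 to 1.49) in 58 of 58 regions, and the AMPA receptor partner Grip1 1.08-fold (1.02 to 1.14), turning to set 2 after rescaling.

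Of 15 metabotropic receptors for the same transmitters, 10 carried a region, with 3 higher in set 1, 4 in set 2 and 3 overlapping. The glutamate receptors Grm4 (1.33-fold, 1.29 to 1.38) and Grm2 (1.23-fold, 1.02 to 1.56) were higher in set 1. The muscarinic receptor Chrm2 (1.86-fold, 1.65 to 2.21) and the GABA-B subunit Gabbr2 (1.07-fold, 1.02 to 1.15) were higher in set 2. Of 9 genes for transmitter synthesis and vesicular loading, 6 carried a region. The vesicular glutamate transporter Slc17a7 was 1.59-fold higher in set 1 (1.55 to 1.64), and 3 were higher in set 2, among them the GABA-synthesising enzyme Gad2 (1.21-fold, 1.09 to 1.33) and the vesicular GABA transporter Slc32a1 (1.17-fold, 1.10 to 1.31). The shares of these lists that carried a region, 59.5% to 68.8%, lie near the 66.0% of the channel genes and above the 32.7% of all genes. Their median log2 ratios were -0.14 to -0.02, against 0.36 for all genes with a region.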

How the data were processed

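The authors deposited 1 table, with no header. Reads were handled with Trimmomatic 0.36, BWA 0.7.17 and CASAVA on GRCm38, per the submitters' processing notes. The sources used here do not give the region caller, the scaling of the values, the use of the inputs or the mapping of sets to constructs. The 6 deposited values of a region are whole numbers of unknown unit that appear rescaled and rounded, so no count model was fitted. The p value in the table was not used.

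Gene spans came from RefSeq (GRCm38.p6), without exons. Values of all regions overlapping a span plus 2 kb were summed per library. The sets were called separated where all 3 sums of one exceeded all 3 of the other. Log2 ratios used a pseudocount of 1. Folds are ratios of summed values, given with the lowest and highest ratio over the 9 library pairs. The pairs share libraries, so this range is a spread and not an error of the fold. It also keeps any difference in scaling between the sets, so a range above 1 can still turn on rescaling. The regions were selected for a difference, and 3 against 3 libraries are too few for an exact permutation test to pass the usual threshold, so no test was run and counts stand beside the shares over all genes. Clusters join neighbours within 500 kb. The 33 genes with a region were all counted. Values in every library are given for the 12 with the greatest covered length, the greatest of each family and the 4 per direction with the largest log2 ratio, and for Chrna1 and Gabrb1, chosen after their values were seen; some genes that fall under these choices are left unreported; from other lists at most 2 genes per direction are named by covered length. The members and lists were chosen with earlier results of these data known. Python 3.11.15, numpy 2.4.6 and pandas 2.3.3 were used, and the overlap step was checked on the files and the separation rule tested on simulated data. Input libraries were not analysed here.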

Additional observations from a re-analysis of the deposited data

How the results depend on the processing

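Counts of genes and regions stayed within 1.5 times of those reported under each of these alternatives: gene spans alone, a flank of 5 kb, regions lying mostly inside the window, libraries rescaled to equal sums, regions summing to at least 100 and leaving out each library. By the sign of the median log2 ratio over a gene's regions, 18 genes leaned to set 1 and 15 to set 2. That count does not ask for separated libraries, so it is a different measure. Genes with a region numbered 30 with spans alone (Grin2d, Chrne and Chrna9 were lost), where 14 rather than 18 were separated towards set 1, and 34 with 5 kb. Of 426 recomputed log2 ratios of single genes, 8 changed sign. Rescaling turned the separated genes Chrna4 (-0.020), Chrnb4 (-0.029), Grik4 (-0.089) and Grin2c (-0.068); the other sign changes were those of Chrna1, which overlapped. Leaving out a library cannot undo a separation, so it could not test the directions of separated genes, which numbered 18 and 14 each time. Separated regions, which can only gain in number this way, ranged from 364 to 400 for set 1. For set 2 they ranged from 495 to 537. Counting only regions lying mostly inside the window moved Chrna9 from a log2 ratio of 0.66 to 1.46. Spans alone moved Chrnb1 from -0.362 to -0.786. Leave-outs aside, and apart from the 4 ratios of separated genes that rescaling turned, 24 log2 ratios moved. Each did so by at least the standard deviation over the gene's 9 library pairs or, in Chrna1, changed sign. Most of the 24 came from rescaling the libraries to equal sums. No paired analysis was possible because the table does not name its libraries. Depth and the deposited unit are unknown, the region list was selected for a difference, and directions cannot be tied to NNMT.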
